A study of Saccharomyces cerevisiae with 10 samples.

Results

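Messenger RNAs that encode RNA-binding proteins were examined for stretches that were themselves bound by protein in Saccharomyces cerevisiae. The 44 mRNAs were taken from a list of gene names, out of 5910 nuclear protein-coding genes of the R64 build. No measured value entered the rule, but earlier results of these data were known when the list was chosen. The method, gPAR-CLIP, lets cells take up 4-thiouracil, crosslinks RNA to whatever protein it touches with long-wave UV light, and recovers RNA through all biotinylated proteins at once, so a bound stretch carries no name of the protein on it. The 10 libraries formed 5 groups of 2 replicates, and each group was deposited as 1 pooled list of bound intervals, called clusters.

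All groups came from strain BY4742, labelled wild type and MATa, with the marker alleles ura3-delta-0 and lys2-delta-0 together with leu2-delta-0 and his3-delta-1. All cultures grew at 30°C in synthetic defined medium with 200 µM 4-thiouracil. Lysates were split on sucrose gradients into a light fraction, which the labels place above the 40S ribosomal subunit, and a heavy one. Log-phase cells gave a polyA RNA list from the light fraction and total RNA lists from both. Cells kept for 2 h without glucose, and cells kept as long without nitrogen, each gave a polyA RNA list from the light fraction. The log-phase polyA list held 61035 clusters, the glucose list 33345, the nitrogen list 38936, the light total RNA list 51574 and the heavy list 115. The heavy list held 0 clusters in the 44 mRNAs, which allows a share of up to 3.23% of its clusters (95% Wilson limit), and it is not used further.

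RNA-binding proteins accompany an mRNA from transcription to decay. Nrd1 and Nab3 end short non-coding transcripts, Hrp1 and Nab2 act in 3′ end formation and poly(A) tail control, and Yra1 and Mex67 act in mRNA export from the nucleus. In the cytoplasm Pab1 coats the poly(A) tail, Pumilio proteins and the Tis11 family bind short motifs downstream of stop codons, and Dhh1, Pat1 and the Lsm1 ring lead an mRNA into decapping. Some of these proteins are known to limit their own synthesis through sites in their own transcripts: Nab2 through an A-rich stretch downstream of its stop codon, and Yra1 through its long intron. The PAB1 mRNA, whose protein is also discussed as binding its own RNA, has an A-rich stretch upstream of its start codon. The clusters in those stretches are therefore shown first.

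The A-rich stretches of PAB1 and NAB2 were set out because each contains a long run of A, here in capitals. The sequences are from the R64 reference. That of PAB1 is chrV:510312-510341 on the plus strand, and those of NAB2 are 2 overlapping stretches on the minus strand, chrVII:278796-278825 with the site before the run and chrVII:278780-278809 with the whole run.
PAB1 upstream: ttattcaataaaaactcAAAAAAAAAAAtc
NAB2 downstream, up to the flank's last base: aagcaacatatttagattttAAAAAAAAAA
NAB2 downstream, whole run: ttttAAAAAAAAAAAAAAAAAAAAAAAAAA
In the PAB1 stretch, clusters covered 26 of the 30 nt in the log-phase polyA list, 24 in the nitrogen list, 12 in the glucose list and 0 in the total RNA list. The run of 11 A itself was covered over its full 11 nt in log phase, over 7 nt after nitrogen starvation and over 0 nt in the other two lists. The NAB2 run is 26 A long, and the 150 nt flank counted for each gene ends within it, after 10 A. The sequence before the run was covered over 18 nt in each of the 3 polyA lists and over 16 nt in the total RNA list. The run itself was covered over 9 nt in the glucose list, all of them beyond the flank, and over 0 nt in the other lists. A crosslink with 4-thiouracil needs a U (T in the sequences shown), and 0 clusters in the lists were without one. A run of A was thus covered only by clusters that also held a U. Whether this bears on the uncovered parts of the runs was not tested.

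Further clusters in the flanks and introns of mRNAs whose proteins are discussed as binding their own RNA are shown because they lay in the same place in 3 or 4 light lists. Capitals mark the bases covered in every list that held the site, and a site is the union of overlapping clusters.
NAB3 upstream, chrXVI:187738-187752, minus strand: tcATAATATaataac
HRP1 upstream, chrXV:87744-87754, plus strand: taTATTACAAt
HRP1 downstream, chrXV:89489-89502, plus strand: gtaTAATTCAACAa
HRP1 downstream, chrXV:89538-89549, plus strand: tATATATacatg
YRA1 intron, chrIV:1237038-1237058, plus strand: taccaATTTTTttcaatactt
YRA1 intron, chrIV:1237594-1237604, plus strand: tTTTTTTTatt
NRD1 downstream, chrXIV:172521-172537, minus strand: tCTATATATAATTtctg
NRD1 downstream, chrXIV:172425-172441, minus strand: CATTATCCTattcttta
TIS11 downstream, chrXII:415701-415718, minus strand: TTTTCTGCTTTTTTtttt
TIS11 downstream, chrXII:415751-415765, minus strand: ctaAACTCAATtatt
The NAB3, HRP1 and YRA1 sites were in all 4 light lists, the first NRD1 site and both TIS11 sites were in the 3 polyA lists, and the second NRD1 site was missing from the glucose list. The downstream HRP1 site at chrXV:89538-89549 alternated between A and U over the bases that every list covered, the letters that Hrp1 is known to bind as the efficiency element of 3′ end formation. The second YRA1 site was a run of U close to the 3′ end of the intron, which spans chrIV:1236843-1237608.

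Motifs known for an encoded protein were then looked for in its own mRNA, on the sense strand of each site with 5 nt added on both sides. TATTTAT, the core of the AU-rich element bound by Tis11 and Cth1, was in 3 of 22 sites of CTH1 and in 1 of 11 sites of TIS11, and in 9 of 892 sites, or 1.01%, over the 44 mRNAs. All 4 of the CTH1 and TIS11 sites with it lay downstream of the stop codon and are counted among the 9. Of the 892 sites, 644 lay in coding sequence and 144 downstream, so the 1.01% is not a share for like positions. Clusters did not cover these motifs in full except at 1 CTH1 site, and covered 4 nt of the TIS11 motif in log phase, 3 nt without nitrogen and 0 nt in the other lists. GTAG, the Nrd1 motif, was beside or in 3 of 20 NRD1 sites, but at 2 of them it lay wholly in the added 5 nt and at the third a cluster covered 2 of its 4 nt. The motifs are shown in capitals in the windows that hold them.
CTH1 downstream, chrIV:764011-764038, minus strand: ttaatttaatctttttagttTATTTATt
CTH1 downstream, chrIV:764107-764124, minus strand: TATTTATTTATtcattat
CTH1 downstream, chrIV:764080-764109, minus strand: tatcgttttcaTATTTATttcagtcacaaa
TIS11 downstream, chrXII:415746-415770, minus strand: ctcaactaaactcaatTATTTATta
HRP1 downstream, chrXV:89533-89554, plus strand: taaTATATATATAcatgtacgt
In the third CTH1 window the clusters reached 4 nt of the motif in log phase and 7 nt after nitrogen starvation, and 0 nt in the glucose and total RNA lists. TATATA, the Hrp1 element, was in 1 of 17 sites of HRP1, against 1.79% of all sites in the 44 mRNAs. A run of 6 A was in 2 of 45 sites of PAB1 and 0 of 24 of NAB2, against 3.59%. TCTT of Nab3 was in 3 of 29 NAB3 sites, or 10.3%, against 14.9%, at 2 of them wholly in the added 5 nt. TGTA, the Pumilio core, was in 3 of 41 sites of MPT5, 2 of 24 of PUF4 and 0 of 27 of PUF3, against 7.85%, and TTTTT was in 0 of 26 sites of PUB1, a U-rich RNA binder, against 8.52%. These counts are small and include the added 5 nt, and the shares over the 44 mRNAs include the own sites of each mRNA. A motif in a site describes letters and not a bound protein.

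Clusters were next counted over each gene with 100 nt before its start codon and 150 nt after its stop codon, the flanks. All 44 mRNAs had at least 1 cluster in each of the 4 light lists. Having one was common: of all 5910 mRNA genes, 5558 had a cluster in the log-phase polyA list and 5164 in the glucose list. In the nitrogen list 5333 had one, and in the total RNA list 5008. Together the 44 mRNAs held 443 clusters in log-phase polyA RNA, 255 without glucose, 261 without nitrogen and 580 in total RNA. As a share of the whole list this was 0.726% (95% Wilson interval 0.662 to 0.796), 0.765% (0.677 to 0.864), 0.670% (0.594 to 0.756) and 1.12% (1.04 to 1.22). The share in total RNA was thus above each of the 3 polyA shares, whose intervals overlapped one another. The lists also differed in mRNA content. The total RNA list, although shorter than the log-phase polyA list, had 41418 mRNA clusters against 39774. Of mRNA clusters alone, the 44 mRNAs made up 1.11% in log phase, 1.10% without glucose, 1.00% without nitrogen and 1.40% in total RNA. On this base total RNA stayed highest by a smaller margin, and no intervals were computed. The median mRNA of the group held 5.78 clusters per kb in log phase against 4.13 for all mRNA genes with a cluster. More clusters can come from more copies of an mRNA as well as from more protein on each copy, and no unselected RNA was set against these lists, so these cannot be told apart here. The intervals cover counting error only, and with 1 pooled list per group no test between groups was possible.

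Densely bound was taken as the top 10% of mRNA genes with a cluster by clusters per kb, at least 9.34 clusters per kb in log phase. This was met by 3 of the 44 mRNAs, or 6.82%, where 10.0% of all mRNA genes with a cluster met it, a share near or below that of mRNA at large. YRA1 had 14.1 clusters per kb in log phase, 4.12 without glucose, 5.30 without nitrogen and 17.7 in total RNA. CTH1, whose protein targets mRNAs of iron-using enzymes for decay, had 10.6, 4.89, 6.51 and 11.4 in the same order. PBP4, which encodes a partner of the Pab1-binding protein Pbp1, had 9.90, 9.90, 11.1 and 12.4. Just below the threshold stood LSM1, which encodes a subunit of the ring that activates decapping, with 9.10 clusters per kb, and PAB1 with 9.07.

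In the other lists the dense members changed. The glucose list placed PBP4, STM1 and PAB1 in the top 10%, the nitrogen list PBP4 alone, and the total RNA list PAB1, STM1 and YRA1. PAB1 had 18 clusters in log phase, 15 without glucose, 12 after nitrogen starvation and 40 in total RNA, where its 20.2 clusters per kb were the most of any member. STM1, which encodes a protein that sits on inactive ribosomes, had 9, 10, 6 and 19 clusters. NGR1, which encodes a U-rich RNA binder that limits growth, went the other way between the log-phase lists, with 19 clusters in polyA RNA and 5 in total RNA, and had 7 in each starvation list. SGN1, which encodes a cytoplasmic RNA-binding protein, had 8, 5, 4 and 3 clusters in the order log phase, glucose, nitrogen and total RNA. The least densely bound members in log phase were HRB1, which encodes a shuttling SR-like protein, and SCP160, which encodes a KH-domain protein of the endoplasmic reticulum, both with 1.53 clusters per kb.

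**Figure D1:**
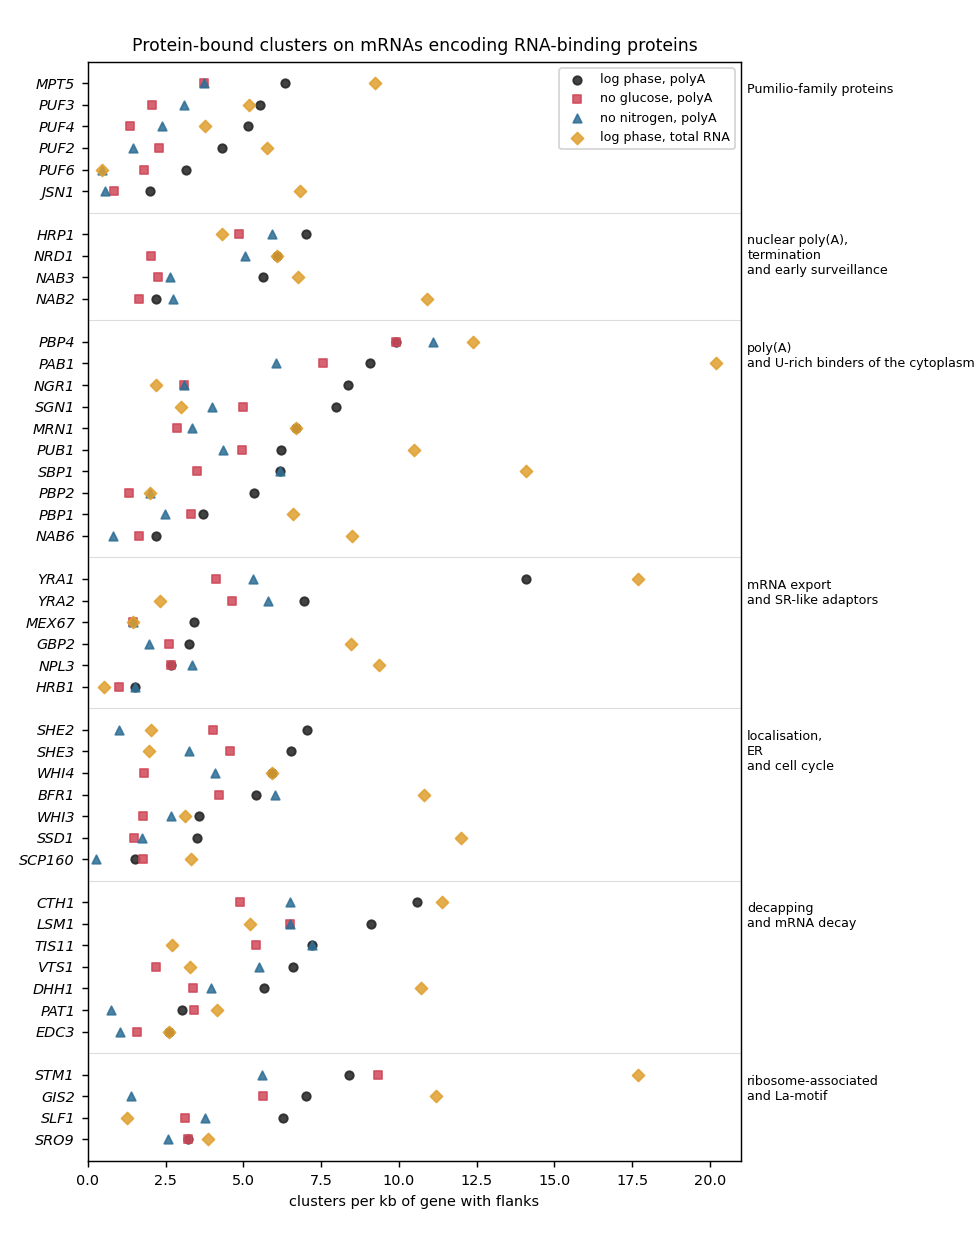
Clusters per kb of gene with flanks (horizontal axis) for each of the 44 mRNAs (vertical axis), ordered by role and by log-phase density; each point is 1 pooled list, so there are no error bars. YRA1, CTH1 and PBP4 are the members above 9.34 clusters per kb in log phase, and PAB1 is highest in total RNA at 20.2.

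Position along the gene was read from the cluster midpoint; the annotation gives no transcript ends, so flanks stand in for untranslated regions. In log phase 44 of the 443 clusters, or 9.93% (7.48 to 13.1), lay upstream, 278 or 62.8% (58.2 to 67.1) in coding sequence, 22 or 4.97% (3.30 to 7.40) in introns and 99 or 22.3% (18.7 to 26.5) downstream. Over all mRNA genes the shares were 8.26%, 66.0%, 1.51% and 24.2%, so the intron share was the one whose interval left out the value for all genes. Without YRA1 that share was 6 of 419 clusters, or 1.43% (0.658 to 3.09). Per kb, the members had 10.0 clusters upstream, 3.71 in coding sequence and 15.0 downstream, against 5.91, 3.21 and 11.5 for the 5558 mRNA genes that had a cluster. At least 1 downstream cluster was present in 42 of the 44 mRNAs and at least 1 upstream cluster in 23. The same counts were not made for all mRNA genes, so they do not set the 44 mRNAs apart. The downstream share was 34.9% (29.3 to 40.9) after glucose starvation and 32.6% (27.2 to 38.5) after nitrogen starvation, while it was 12.6% (10.1 to 15.5) in total RNA. All mRNA genes had the same order, with 30.6%, 30.3% and 13.3%.

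YRA1 supplied most of the intron clusters. Its intron of 766 nt held 16 of its 24 clusters in log phase, 3 of 7 in glucose starvation, 4 of 9 after nitrogen starvation and 18 of 30 in total RNA. Among 271 genes with an intron this was the highest number in both log-phase lists. The intron is long, and by clusters per kb of intron YRA1 ranked 27 in log-phase polyA RNA and 9 in total RNA. Clusters covered 23.8% of the intron in log-phase polyA RNA and 28.7% in total RNA, but 4.70% after glucose starvation and 4.31% after nitrogen starvation. Per list size, the number of intron clusters was 0.343 times that in log phase without glucose (exact 95% interval 0.0641 to 1.20) and 0.392 times without nitrogen (0.0953 to 1.21). Outside the intron the same ratios were 0.915 (0.202 to 3.42) and 0.980 (0.252 to 3.40), and in the introns of all other mRNA genes 0.954 (0.828 to 1.10) and 1.11 (0.979 to 1.26). The YRA1 intron was thus lower than the rest of the gene in both starvation lists, but all of its intervals held 1 and the counts were small. MPT5, which encodes a Pumilio protein that represses its targets, held 5, 2, 2 and 6 intron clusters in log phase, glucose, nitrogen and total RNA, and HRB1 held 1, 1, 1 and 0.

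The flanks of the PAB1, NRD1 and HRP1 mRNAs held clusters in every light list. PAB1 had 3 upstream and 5 downstream clusters in log phase, 1 and 4 without glucose, 1 and 2 without nitrogen, and 1 and 3 in total RNA. NRD1 had 5 downstream clusters in log phase, 3 without glucose, 4 without nitrogen and 4 in total RNA. Its coding clusters numbered 5, 0, 4 and 6, so the glucose list held flank clusters alone. NAB2 had 4 clusters in log phase, 3 without glucose, 5 without nitrogen and 20 in total RNA. Of those in total RNA, 16 lay in the coding sequence, and the downstream site beside the A run was in every list. HRP1 had 2 upstream and 4 downstream clusters in each of the 3 polyA lists and 2 and 2 in total RNA. NPL3, which encodes a shuttling SR-like protein, had 1, 2, 3 and 1 downstream clusters and 3, 2, 2 and 13 coding clusters in the order log phase, glucose, nitrogen and total RNA.

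**Figure D2:**
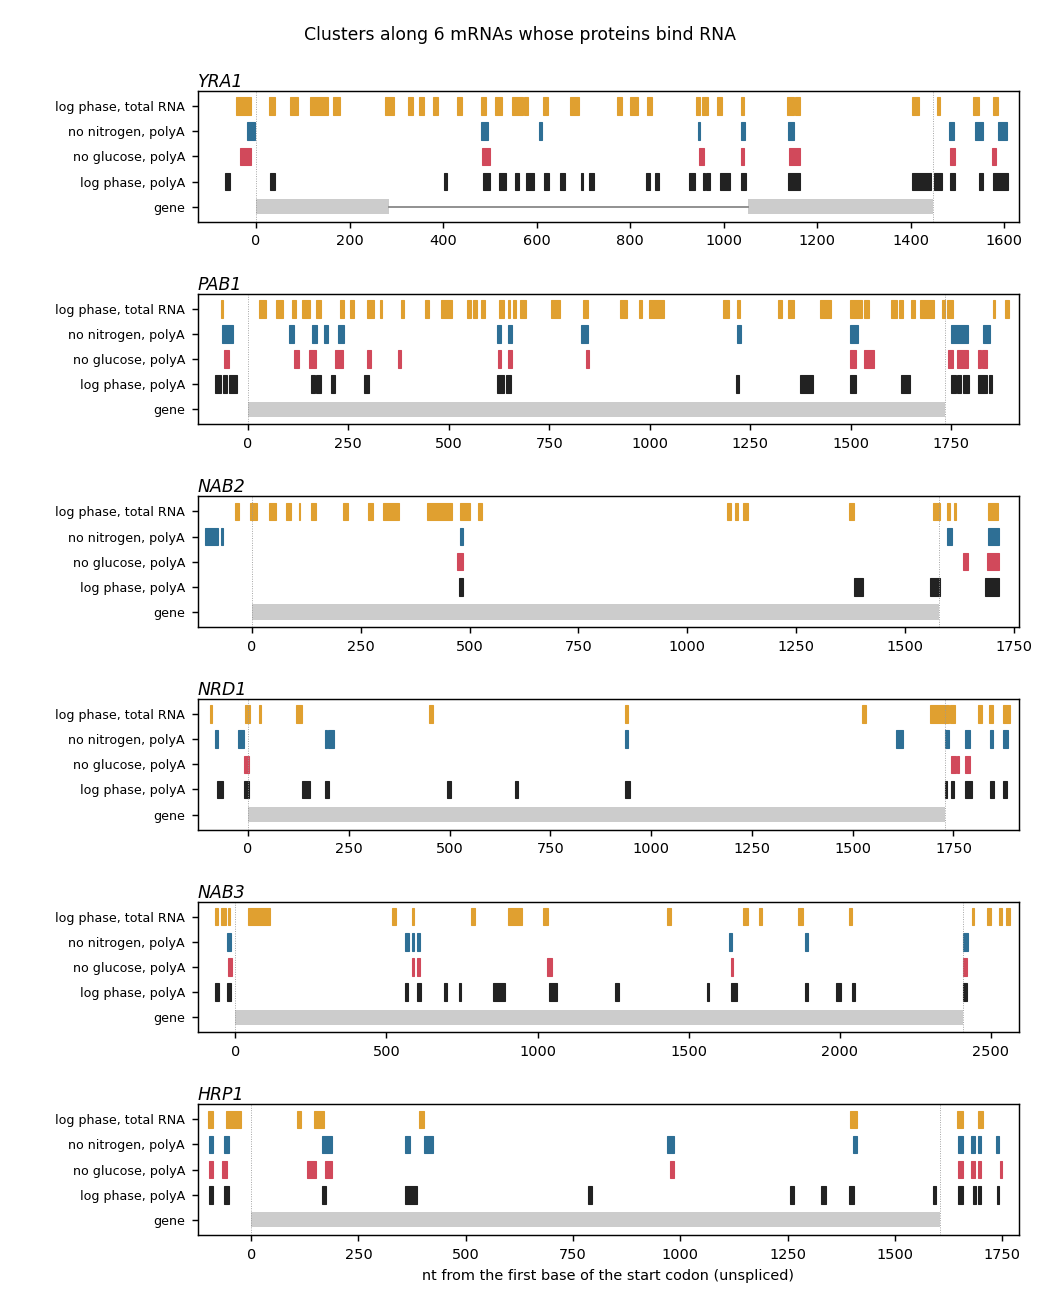
Clusters (coloured blocks) along 6 unspliced genes in the 4 light lists; the horizontal axis is the distance in nt from the first base of the start codon, grey bars are coding sequence and the thin line is the YRA1 intron. The YRA1 intron holds 16 and 18 clusters in the log-phase lists and 3 and 4 after starvation, and the NAB2 site after the stop codon is present in every row.

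Clusters were compared by position across lists on the same strand with at least 1 nt of overlap. Of the 443 log-phase clusters, 43.6% (39.0 to 48.2) were overlapped in the glucose list, 47.2% (42.6 to 51.8) in the nitrogen list and 39.5% (35.1 to 44.1) in the total RNA list. Over all mRNA genes the shares were 43.6%, 48.2% and 32.2%. The starvation shares differed little from those of all genes and the total RNA share was above it. The shares varied more with position in the gene. Downstream of the stop codon 69.7% (60.0 to 77.9) of the log-phase clusters were overlapped after glucose starvation and 75.8% (66.5 to 83.1) after nitrogen starvation, against 32.4% (27.1 to 38.1) and 37.8% (32.3 to 43.6) in coding sequence. Upstream clusters stood at 63.6% (48.9 to 76.2) and 54.5% (40.1 to 68.3), against 48.8% and 50.8% over all mRNA genes. Over all mRNA genes downstream clusters were also overlapped more often than coding ones, with 60.3% and 66.3% downstream and 36.9% and 41.0% in coding sequence. The members had 22 intron clusters in log phase, of which 16 lay in YRA1, so their intron shares rest mostly on YRA1. Of the 22, 27.3% (13.2 to 48.2) were overlapped after glucose starvation and 22.7% (10.1 to 43.4) after nitrogen starvation. Over all mRNA genes the intron shares were 41.4% and 57.1%, and only the nitrogen interval left out the value for all genes. In total RNA 54.5% (34.7 to 73.1) of the 22 were overlapped, against 39.2% over all mRNA genes. Both starvation lists are set against the same log-phase list here.

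**Figure D3:**
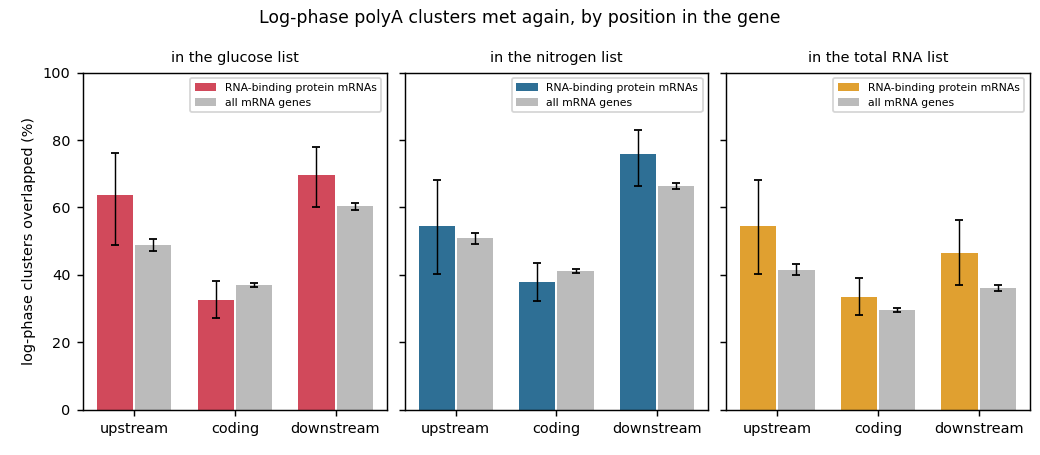
Share of log-phase polyA clusters overlapped by at least 1 nt in the glucose, nitrogen and total RNA lists (vertical axis, percent) for upstream, coding and downstream clusters; bars are the 44 mRNAs (coloured) or all mRNA genes (grey), with 95% Wilson intervals. Downstream clusters of the 44 mRNAs reach 69.7% and 75.8% in the starvation lists, above the coding clusters at 32.4% and 37.8%.

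When clusters of the 4 light lists were merged, the 44 mRNAs held 892 sites, of which 83 or 9.30% (7.57 to 11.4) were in all 4 lists, close to the 9.38% of all mRNA genes. Of the 83 sites, 61 had at least 1 base covered in every list, and the rest were joined through neighbouring clusters, as in the PAB1 upstream site. The 83 sites lay in 35 mRNAs, a count that was not made for all mRNA genes and so does not set the 44 apart. Sites in all lists made up 22.9% (16.8 to 30.4) of downstream sites, 19.7% (12.1 to 30.4) of upstream sites and 4.81% (3.41 to 6.75) of coding sites. Over all mRNA genes the shares were 20.4%, 14.0% and 6.25%, each inside the interval of the members, so this order was shared by mRNA at large. STM1 had 4 downstream sites in all 4 lists, and HRP1 had 2 upstream and 2 downstream. The NAB2 downstream site shared 22 of its 32 nt across all 4 lists, the most of any flank site present in all 4. Among the 9 mRNAs without a site in all lists were NRD1, TIS11, SHE2 and SHE3, the last of which encodes the myosin adaptor that moves ASH1 mRNA.

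Covered length was then compared between lists. Each gene's covered nucleotides per 100000 nt of clustered sequence were compared as a log2 ratio after adding 20 nt to both lengths, relative to the median of all mRNA genes, and a gene was called at 2-fold or more if it had at least 3 clusters in 1 of the lists. After glucose starvation 0 of the 44 mRNAs were called higher, where 3.61% of all genes were, and 2 or 4.55% were called lower, where 7.00% of all genes were. The median of the 44 was 0.06 (log2), with values from -1.04 to 0.94. VTS1, which encodes a protein that binds RNA hairpins and recruits a deadenylase, had 12 clusters in log phase and 4 after glucose starvation, a log2 ratio of -1.04. YRA1 had 24 and 7 clusters, a log2 ratio of -1.0, at the 2-fold threshold. Without its intron clusters the YRA1 value was -0.48. The next lowest were NAB3 at -0.92 with 15 and 6 clusters, NGR1 at -0.83 with 19 and 7, and WHI4, which encodes a cyclin mRNA binder, at -0.83 with 13 and 4. The highest were SCP160 at 0.94 with 6 and 7 clusters, SRO9, which encodes a La-motif protein, at 0.76 with 5 and 5, and STM1 at 0.72 with 9 and 10. PBP1 stood at 0.71 with 9 and 8 clusters and NAB6, which encodes a protein that binds cell wall mRNAs, at 0.51 with 8 and 6. The medians of the 7 roles lay between -0.39, for the nuclear poly(A), termination and surveillance proteins, and 0.49, for the ribosome-associated and La-motif proteins. Per list size the count ratios of VTS1, 0.610 (0.143 to 2.01), and YRA1, 0.534 (0.194 to 1.28), had intervals that held 1, as did those of all 44 mRNAs, while 0.985% of all genes had an interval above 1 and 0.534% had one below 1. Of 77 other mRNA-binding, decay and export genes that could be called, 1 was called higher and 4 lower.

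After nitrogen starvation 0 of the 44 mRNAs were called higher, where 4.29% of all genes were, and 4 or 9.09% were called lower, where 5.39% of all genes were. The median of the 44 was -0.13 (log2), with values from -1.33 to 0.94. SHE2, which encodes the protein that binds ASH1 mRNA for transport to the bud, had 7 clusters in log phase and 1 after nitrogen starvation, a log2 ratio of -1.33. GIS2, which encodes a zinc-knuckle protein, had 5 and 1 clusters and stood at -1.14. PUF6, which encodes a repressor of ASH1 translation, had 7 and 1 clusters and stood at -1.04. YRA1 had 24 and 9 clusters and stood at -1.02, or -0.42 without its intron clusters. NAB3 followed at -0.81 with 15 and 7 clusters. The highest were PBP4 at 0.94 with 8 and 9 clusters, HRB1 at 0.69 with 3 and 3, SBP1, which encodes a translational repressor, at 0.55 with 7 and 7, TIS11 at 0.51 with 8 and 8 and HRP1 at 0.47 with 13 and 11. The medians of the 7 roles lay between -0.41, for the Pumilio proteins, and 0.30, for the nuclear poly(A), termination and surveillance proteins, and that of the ribosome-associated and La-motif proteins was -0.26. The count ratio intervals of all 44 mRNAs held 1, where 1.32% of all genes had one above 1 and 0.630% one below 1. In the same list of other genes 1 of 78 was called higher and 2 lower. The calls of SHE2, GIS2 and PUF6 rest on 1 cluster each after nitrogen starvation, and the share of 9.09% is 4 genes.

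YRA1 was called lower in both starvation comparisons. They share the log-phase polyA list as their reference, so a high value there lowers both ratios at once. Set directly against each other, the glucose and nitrogen lists held 7 and 9 YRA1 clusters, a ratio per list size of 0.908 (0.287 to 2.74). Of the 44 mRNAs, 2 had an interval that left out 1, above it, where 1.25% of all genes did, and 0 had one below 1, where 0.974% did. SCP160 had 7 clusters without glucose and 1 without nitrogen, a ratio of 8.17 (1.05 to 368), and PAT1, which encodes a decapping activator, had 9 and 2, a ratio of 5.25 (1.09 to 50.0). Neither interval was corrected for the 44 mRNAs.

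**Figure D4:**
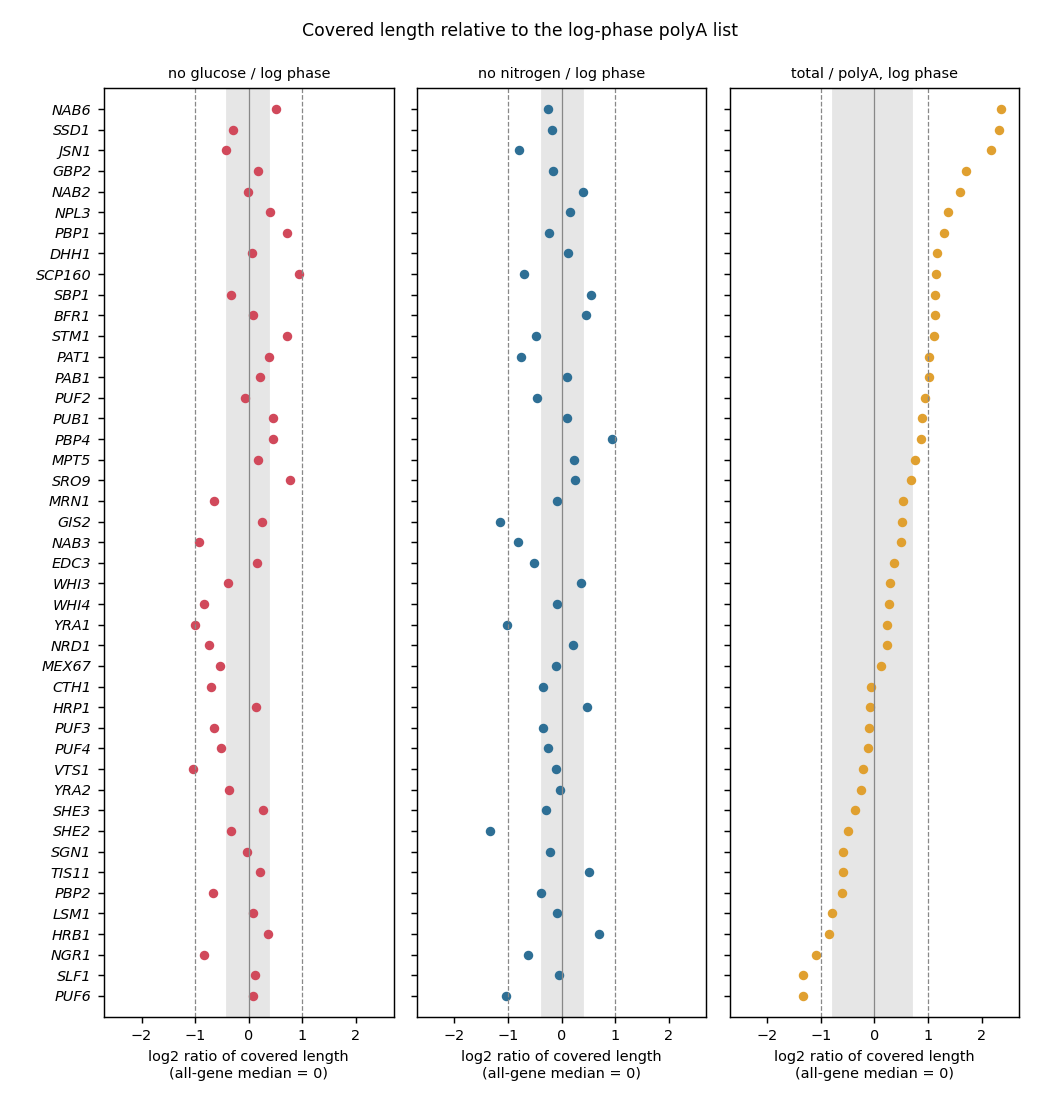
Log2 ratio of covered length in the glucose, nitrogen and total RNA lists over the log-phase polyA list (horizontal axes) for the 44 mRNAs, ordered by the total RNA ratio; 0 is the median of all mRNA genes, grey bands are the middle 50% of all mRNA genes and dashed lines mark 2-fold. Each point is 1 pooled list over another; the total RNA panel runs from -1.33 to 2.36, wider than the starvation panels.

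In log phase, the light total RNA list was set against the polyA list. Of the 44 mRNAs, 14 or 31.8% were called more covered in total RNA, where 18.1% of all genes were, and 3 or 6.82% were called less covered, where 19.9% of all genes were. Their median was 0.42 (log2) above that of all genes, with 28 of the 44 above it. When clusters under 10 nt were left out, 9 of 43 mRNAs were called more covered, near the 20.1% of all genes. The list of 83 other mRNA-binding, decay and export genes had 13 more covered and 13 less covered among 80 that could be called, and a median of -0.12. The groups differ in RNA selection and in the make-up of their clusters. Member clusters contained 15.7% G in total RNA and 7.11% in polyA RNA, and their median width was 13 nt and 10 nt. The part of these differences in the ratios was not tested.

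The members more covered in total RNA came from every role. NAB6 had 31 clusters in total RNA and 8 in polyA RNA, a log2 ratio of 2.36 and a count ratio per list size of 4.59 (2.06 to 11.5). SSD1, which encodes a repressor that binds cell wall mRNAs, had 48 and 14 clusters, a log2 ratio of 2.32 and a count ratio of 4.06 (2.20 to 7.97). Of its 48 clusters, 42 lay in coding sequence, against 10 of 14 in polyA RNA. JSN1, which encodes a Pumilio protein, had 24 and 7 clusters and a log2 ratio of 2.17. GBP2, which encodes a shuttling SR-like protein of mRNA surveillance, had 13 and 5 and stood at 1.71. NAB2 had 20 and 4 and stood at 1.60, with a count ratio of 5.92 (1.98 to 23.8). NPL3 followed at 1.38 with 14 and 4 clusters, PBP1 at 1.29 with 16 and 9, and DHH1, which encodes a helicase of decapping, at 1.17 with 19 and 10. SCP160 stood at 1.14, SBP1 and BFR1, which encodes a partner of Scp160 at the endoplasmic reticulum, at 1.13, STM1 at 1.11, and PAT1 and PAB1 at 1.01. The PAT1 call held under 3 of 8 alternative settings, and its value was 0.49 when clusters counted for every gene they overlap; PAB1 and SBP1 held under 5 of 8. The interval of the count ratio lay above 1 for 10 of the 44 mRNAs, where it did for 9.97% of all genes. These were NAB6, SSD1, JSN1, GBP2, NAB2, NPL3, PAB1, SBP1, BFR1 and STM1. PAB1 had a ratio of 2.63 (1.47 to 4.87).

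The members less covered in total RNA were PUF6 and SLF1, both at -1.33, and NGR1 at -1.09. PUF6 had 1 cluster in total RNA and 7 in polyA RNA. SLF1, which encodes a La-motif protein, had 2 and 10. NGR1 had 5 and 19, and its count ratio of 0.311 (0.0909 to 0.862) was the only one of the 44 whose interval lay below 1, where 3.93% of all genes had such an interval. The NGR1 call held under 4 of 8 alternative settings, that of SLF1 under 6 and that of PUF6 under 7. HRB1 at -0.84 with 1 and 3 clusters and LSM1 at -0.79 with 4 and 7 followed and were not called. Paralogues could differ, as GBP2 stood at 1.71 and HRB1 at -0.84, while YRA1 stood at 0.24 and YRA2, with 2 and 6 clusters, at -0.25. The difference within either pair was not tested. The flanks of GBP2 and PAT1 overlap a neighbouring gene or its flank on the same strand, so clusters there could belong to either transcript.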

How the data were processed

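The values describe 10 gPAR-CLIP libraries of yeast in 5 groups of 2 replicates, named by the labels for condition, RNA selection and gradient fraction. The deposited files are lists of clusters with start and end coordinates, 1 per group, so the authors pooled replicates. Reads were aligned with Bowtie 0.12.7 to build R64, per the submitters' processing notes. For the cluster caller, its thresholds and the nuclease, details were not given in the sources used here. In the deposited light lists the score is 0 in every line, so depth is unknown and precision is set by the number of clusters. Coordinates were read as 0-based and half-open, which a base check on both strands fitted, and are printed 1-based.

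Clusters were assigned on their own strand with the RefSeq annotation of R64, gene bodies before flanks and structural RNA before mRNA. Shares have 95% Wilson intervals; ratios of cluster numbers, scaled to list size, have Clopper-Pearson intervals from the conditional binomial, uncorrected for the number of genes. The scripts, in Python 3.11.15 with NumPy 2.4.6, SciPy 1.17.1 and Matplotlib 3.10.9, were tested on simulated data. Values were named for 9 mRNAs discussed as binding their own RNA, for the 10 densest in log phase, and for the 5 highest and 5 lowest ratios of each comparison; others were added after their values were seen, as were the windows of 30 nt around motifs and A runs and the part of the NAB2 run beyond its flank. The members and lists were chosen with earlier results of these data known. Alternatives covered flank width, added length, cluster width, counts in place of covered length, overlap and assignment; removal of YRA1 intron clusters and the glucose against nitrogen ratios were added after seeing the data.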

Additional observations from a re-analysis of the deposited data

Results flagged for a closer look

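Clusters on the strand opposite to a coding region were outside every comparison, and the heavy list held 0 of them in these genes. HRB1 had 5 such clusters in the log-phase polyA list, and 1, 3 and 1 in the glucose, nitrogen and total RNA lists. On its own strand, counted with intron and flanks, HRB1 had 3 clusters in log-phase polyA RNA, 0 of them in coding sequence. CTH1 had 4 opposite-strand clusters in the log-phase polyA list, and 1, 0 and 0 in the others. Its 13 own-strand clusters in log-phase polyA RNA, counted with flanks, included 10 in coding sequence. PBP4 had 4 opposite-strand clusters in the nitrogen list, and 2, 1 and 0 in the log-phase polyA, glucose and total RNA lists. The heavy list has 115 clusters in all, so 0 there is a weak control, and differences between the lists were not tested.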

How the results depend on the processing

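The counts of called mRNAs depended on the settings, and the share over all genes, given in brackets, often moved with them. With flanks of 200 nt, 1 mRNA was called higher (3.24%) and 1 lower (6.68%) after glucose starvation, 1 higher (3.92%) and 2 lower (5.23%) after nitrogen starvation, and 1 less covered in total RNA (19.4%); 5 were densely bound, and the upstream share was 15.7%. Without flanks, 7 of 39 were lower after glucose starvation (11.0%), 1 of 39 higher after nitrogen starvation (5.51%) and 5 of 41 less covered in total RNA (20.2%). With 5 nt added, 1 was higher without glucose (7.70%), 1 higher without nitrogen (7.48%) and 1 lower without glucose (13.2%). With 50 nt added, 0 were lower without glucose (2.03%) or nitrogen (1.71%), and 9 were more (12.3%) and 0 less (8.09%) covered in total RNA. With clusters of at least 10 nt, 4 of 41 were higher without glucose (7.19%), 1 of 41 higher without nitrogen (7.29%) and 9 of 43 more covered in total RNA (20.1%). By cluster counts, 1 was lower without glucose (10.0%), which was neither VTS1 nor YRA1, and 5 were less covered in total RNA (19.2%). The called mRNAs also changed in other settings. Without flanks, 4 of 39 were lower without nitrogen (9.23%), and 2 of these had been called with flanks. Of the 5 densely bound with flanks of 200 nt, 2 were among YRA1, CTH1 and PBP4. By covered percent, 7 were densely bound. When at least 50% of a cluster had to overlap, the shares met again were 38.1% in the glucose, 40.6% in the nitrogen and 30.9% in the total RNA list. All 23 called values kept their direction; GBP2, SSD1, NAB2, PBP1, JSN1 and NAB6 in total RNA stayed past 2-fold under all 8 alternatives, while PAT1 fell to 0.49 when clusters counted for every gene they overlap. VTS1 after glucose starvation and PUF6 after nitrogen starvation stayed past 2-fold under 5 of 8, and SHE2 and GIS2 after nitrogen starvation under 6 of 8. In each starvation comparison YRA1 did so under 5 of 9, counting the removal of its intron clusters. YRA1 without its intron moved to -0.48 and -0.42. The cause of these shifts was not tested. No paired analysis was possible because both replicates of a group are pooled in 1 list, and no replicate could be left out. Small cluster numbers per gene limit every ratio.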
